A study of Danio rerio with 16 samples.

Results

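The 10 genes described here encode neuropeptide precursors and secretogranins of the zebrafish embryo: VGF, npy, agrp, hcrt, pmch, galn, oxt, avp, scg2b and scg3. They were chosen by gene symbol, each symbol matched 1 of the 31388 genes in the deposited tables, and the list was drawn up with results of these data known. Their values are therefore given as a description, without p-values. RNA of whole wildtype embryos was sequenced in 16 libraries. Particle embryos had received 1 nl of 5 mg/ml red fluorescent polystyrene beads of 700 nm in polyvinylpyrrolidone (PVP), injected into the yolk at 2 days post fertilization (dpf), and mock embryos PVP only, while control embryos were not injected. Embryos were frozen at 3 or 1 days post injection (dpi), 10 per treatment group, at ages of 5 and 3 dpf. At each time there were 3 particle, 2 mock and 3 control libraries, with biological replicates named A, B and C. The file headers of both particle C libraries read 70 nm, and which diameter holds for them was not settled by the sources used here.

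Neuropeptides are cut out of longer precursor proteins. Precursors enter dense-core vesicles, where the prohormone convertases encoded by pcsk1 and pcsk2 cleave them at basic residues and carboxypeptidase E trims the ends. Granins, the family of the secretogranins, help to form and fill these vesicles and are themselves precursors. In fish, as in mammals, many of the neurons that make npy, agrp, hcrt, pmch, galn, oxt and avp lie in the hypothalamus, where these peptides act on appetite, wakefulness, water balance and social behaviour.

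Library totals ran from 8679739 to 19840148 counts. Mock replicate A at 3 dpi stood apart from the other libraries. Its scaling factor was 0.694, against 0.886 to 1.11 in the other 15, and its 100 most abundant genes held 38.8% of the counts, against 19.9% to 32.0%. For the members at 3 dpi, values without this library are given where they move by over 1.5 times or change sign. Levels are given as CPM, counts relative to the library total after scaling by the trimmed mean of M-values (TMM). Of 30 listed neuron markers 27 were matched, and none of these was at 0 in any library. Their summed level was 5314 to 6253 CPM in particle embryos, 6512 to 6590 CPM in mock embryos and 5618 to 6327 CPM in control embryos at 3 dpi. At 1 dpi it was 5716 to 6526 CPM in particle embryos, 5661 to 5802 CPM in mock embryos and 6366 to 6965 CPM in control embryos. In whole embryos, fewer cells of a type and less RNA per cell cannot be told apart.

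VGF, on chromosome 10 (ENSDARG00000086665, in capitals in the deposited tables), is a granin-family precursor first known in rat cells as a gene induced by nerve growth factor. Its RNA was higher in both kinds of injected embryos than in uninjected ones at 1 dpi, and the gap was smaller at 3 dpi. At 1 dpi VGF measured 20.6, 17.2 and 15.5 CPM in particle embryos, 23.0 and 21.7 CPM in mock embryos, and 10.7, 9.41 and 9.13 CPM in control embryos. The 3 groups did not overlap, mock embryos being highest and control embryos lowest. Of all tested genes 5.52% did not overlap between particle and control embryos, 36.2% between mock and control and 26.2% between particle and mock. The share for which all 3 groups separate was not computed. Means were 17.8 ± 2.60 CPM in particle embryos (SD, n = 3), 22.3 ± 0.942 CPM in mock embryos (n = 2) and 9.75 ± 0.835 CPM in control embryos (n = 3). The fitted log2 difference was 0.86 ± 0.17 (SE) for particle against control, 1.2 ± 0.19 for mock against control and -0.33 ± 0.19 for particle against mock.

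At 3 dpi VGF measured 34.6, 33.3 and 23.1 CPM in particle embryos, 30.8 and 33.2 CPM in mock embryos, and 27.6, 24.7 and 24.1 CPM in control embryos. Both mock libraries lay above all controls, whereas particle replicate C lay below them. The log2 difference was 0.25 ± 0.17 for particle against control, 0.33 ± 0.19 for mock against control and -0.08 ± 0.19 for particle against mock. With library totals unscaled by TMM mock against control became 0.01 and particle against mock 0.26, and with replicates A and B only particle against mock was 0.09, so that its sign was not stable. Without particle replicate C, the library whose header reads 70 nm, and with control replicate C kept, particle against control was 0.42. Without particle replicate A it was 0.15. Replicate C also had the lowest VGF in both control groups, at 24.1 CPM at 3 dpi and 9.13 CPM at 1 dpi. Particle and control embryos no longer overlapped without particle replicate C, and the share of all genes not overlapping in that set was not computed. Comparisons of 2 mock with 3 other libraries had 26.2% to 43% of genes not overlapping. Uninjected embryos showed a larger step with age: 25.5 ± 1.89 CPM at 3 dpi, against 9.75 ± 0.835 CPM at 1 dpi, a log2 difference of 1.38 ± 0.17. It stayed between 1.30 and 1.46 under 15 alternative settings. The difference between mock and control embryos changed by -0.87 ± 0.27 log2 units between 1 and 3 dpi, and that between particle and control embryos by -0.61 ± 0.24.

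**Figure D1:**
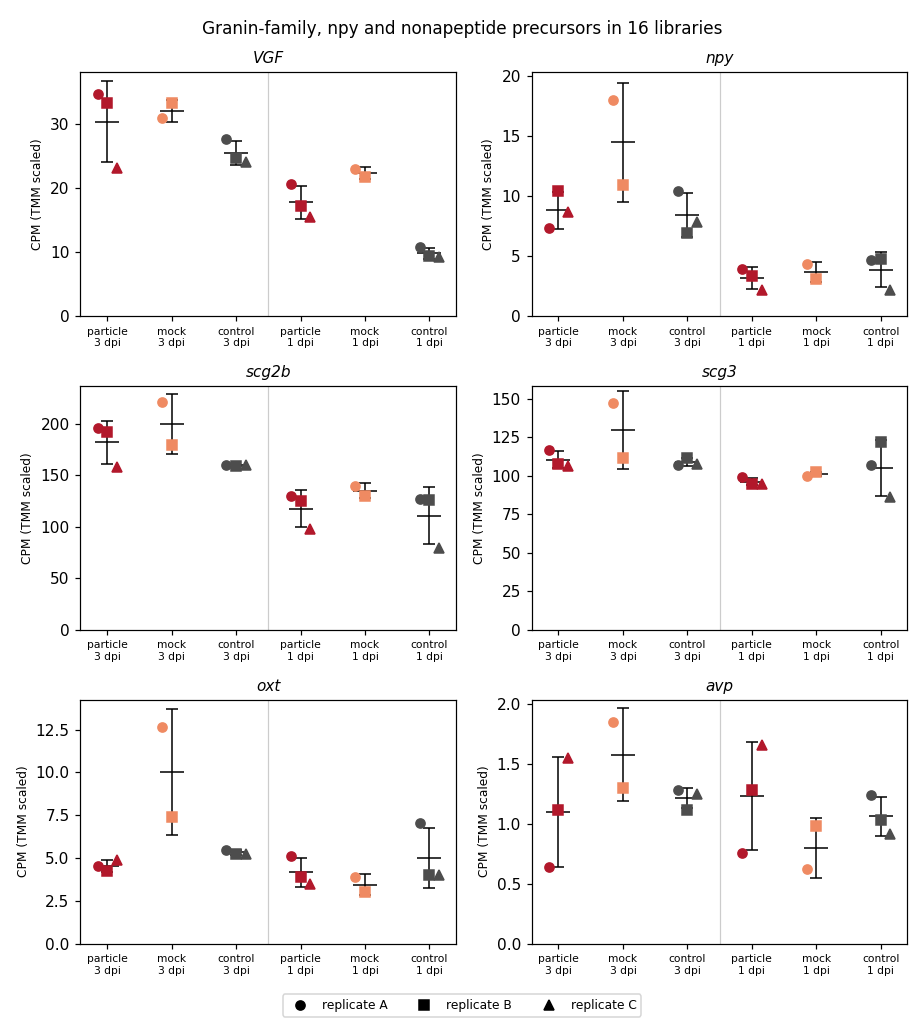
CPM (TMM scaled, linear axes from 0) of VGF, npy, scg2b, scg3, oxt and avp in every library, by group and time. Symbols are replicates A, B and C, dashes are group means and bars are 1 SD. In the VGF panel all injected embryos at 1 dpi, 15.5 to 23.0 CPM, lie above the 3 controls, 9.13 to 10.7 CPM. The share of all genes that separate in this way was not computed.

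VGF was chosen with results known, so that its place among other genes is a description and not a test. Among the 15504 genes that averaged 5 CPM or more, 1.65% had as high or higher a log2 difference in particle against control embryos at 1 dpi. For mock against control embryos at 1 dpi the share was 2.32%, and for 3 dpi against 1 dpi in controls 2.71%. At 3 dpi it was 10.9% for particle against control and 24.0% for mock against control. The shares do not rank these differences. At 1 dpi mock against control had the larger log2 difference, 1.2 against 0.86, and also the larger share. Expressed per 1000 CPM of neuron markers, VGF stood at 2.94 ± 0.621 in particle embryos, 3.90 ± 0.232 in mock embryos and 1.49 ± 0.172 in control embryos at 1 dpi, so that the order was the same with the neuronal total as the base. At 3 dpi these ratios were 5.34 ± 1.47 in particle embryos, 4.88 ± 0.216 in mock embryos and 4.21 ± 0.302 in control embryos. The particle mean was thus highest on this base, whereas the mock mean was highest in CPM, at 32.0 against 30.3 CPM. On this base particle replicate C, at 3.69, was the lowest library at 3 dpi, and the particle libraries overlapped both other groups. The levels of 12 liver genes moved in part with VGF at 1 dpi: their sum was 842, 240 and 37.6 CPM in particle replicates A, B and C, 857 and 1003 CPM in mock embryos and 22.4 to 107 CPM in control embryos. Particle replicate C had 15.5 CPM of VGF and a liver sum inside the control range. At 3 dpi the liver sum was 5133, 2815 and 822 CPM in particle replicates A, B and C. It was 609 and 2000 CPM in mock replicates A and B, and 389, 2367 and 292 CPM in control replicates A, B and C. The part of the liver genes in the VGF values was not tested. With replicates A and B only, the differences of VGF at 1 dpi were 0.91 for particle against control and 1.15 for mock against control.

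**Figure D2:**
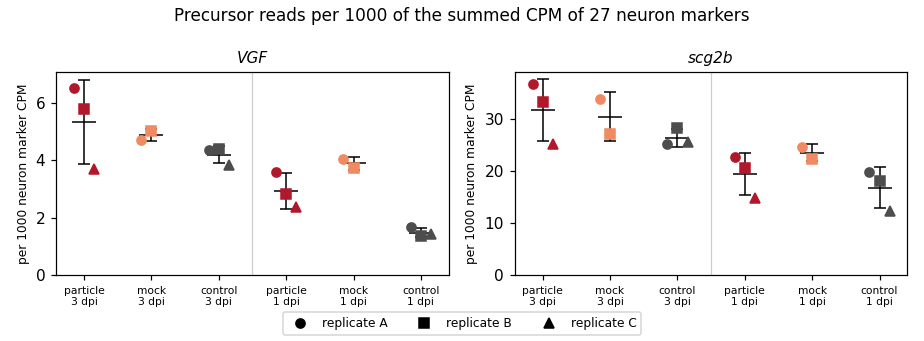
VGF and scg2b per 1000 CPM of the 27 neuron markers, by group and time, with replicates as symbols, means as dashes and 1 SD as bars. At 1 dpi VGF lies at 2.94 in particle embryos and 3.90 in mock embryos on average, against 1.49 in control embryos.

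The secretogranins scg2b and scg3 had the most counts of the 10 genes and differed less between groups. For scg2b, on chromosome 2 (ENSDARG00000038574), which encodes the precursor of the peptide secretoneurin, 1218 to 3324 counts were obtained per library. At 3 dpi it measured 196, 192 and 158 CPM in particle embryos, 221 and 180 CPM in mock embryos, and 160, 159 and 160 CPM in control embryos. The mock libraries lay above all controls and the particle libraries overlapped them, with log2 differences of 0.32 ± 0.20 for mock against control and 0.19 ± 0.18 for particle against control. The mock difference was 0.17 without mock replicate A. At 1 dpi scg2b measured 130, 125 and 97.4 CPM in particle embryos, 140 and 130 CPM in mock embryos, and 127, 126 and 79.0 CPM in control embryos. Replicate C was the lowest in both groups that have one, and the mock difference from controls was 0.29 ± 0.20 with that control library and 0.09 without it. In uninjected embryos scg2b averaged 160 ± 0.571 CPM at 3 dpi and 111 ± 27.4 CPM at 1 dpi, and the libraries of the 2 ages did not overlap (log2 difference 0.53 ± 0.18, or 0.34 with replicates A and B only).

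For scg3, on chromosome 18 (ENSDARG00000086288), whose protein anchors other granins at the vesicle membrane, the group means lay close together. At 3 dpi scg3 averaged 110 ± 5.56 CPM in particle embryos, 130 ± 25.3 CPM in mock embryos and 109 ± 2.54 CPM in control embryos. The wide mock spread came from 147 CPM in replicate A and 112 CPM in replicate B, and mock against control was 0.25 ± 0.15 with replicate A and 0.04 without it. At 1 dpi the means were 96.1 ± 2.46 CPM in particle embryos, 101 ± 1.57 CPM in mock embryos and 105 ± 18.1 CPM in control embryos. None of the 6 differences between treatments within a time exceeded 0.25 in size on the log2 scale, each with an SE of 0.14 or 0.15.

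The appetite-stimulating precursor npy, on chromosome 19 (ENSDARG00000036222), was higher at 3 dpi than at 1 dpi in all 3 treatments. At 3 dpi npy measured 7.33, 10.4 and 8.68 CPM in particle embryos, 18.0 and 10.9 CPM in mock embryos, and 10.4, 6.93 and 7.83 CPM in control embryos. Every library at 3 dpi lay above every library at 1 dpi, and the share of all genes that separate in this way was not computed. At 1 dpi npy measured 3.93, 3.37 and 2.16 CPM in particle embryos, 4.28 and 3.08 CPM in mock embryos, and 4.65, 4.76 and 2.14 CPM in control embryos. In uninjected embryos the difference between 3 and 1 dpi was 1.15 ± 0.33 log2 units. At 3 dpi the mock libraries were above all particle and all control libraries, with log2 differences of -0.72 ± 0.35 for particle against mock and 0.79 ± 0.35 for mock against control. Without mock replicate A these were -0.32 and 0.38, and particle embryos differed from controls by 0.07 ± 0.32.

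Its hypothalamic partner agrp, on chromosome 7 (ENSDARG00000069089), encodes an antagonist of melanocortin receptors and had 4 to 35 counts per library. At 3 dpi it measured 2.12, 0.344 and 0.643 CPM in particle embryos, 1.74 and 0.781 CPM in mock embryos, and 0.549, 1.68 and 0.432 CPM in control embryos. At 1 dpi it measured 2.41, 0.741 and 0.498 CPM in particle embryos, 1.45 and 0.677 CPM in mock embryos, and 0.698, 0.724 and 0.357 CPM in control embryos. Single libraries spanned the whole range, so that particle against control at 1 dpi came to 1.06 ± 0.77 log2 units and moved between 0.10 and 1.44 with the setting. At this depth no difference of agrp between groups was detectable.

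The nonapeptide precursors had the same order of group means at 3 dpi, mock highest and particle lowest, and mock embryos had the lowest means at 1 dpi. Fish oxt, on chromosome 5 (ENSDARG00000042845), encodes isotocin, the counterpart of oxytocin. At 3 dpi oxt measured 4.51, 4.21 and 4.87 CPM in particle embryos, 12.6 and 7.42 CPM in mock embryos, and 5.49, 5.26 and 5.24 CPM in control embryos. Particle libraries were all below, and mock libraries all above, the 3 controls. The log2 difference was -1.14 ± 0.29 for particle against mock, 0.92 ± 0.29 for mock against control and -0.23 ± 0.27 for particle against control. Without mock replicate A the first 2 were -0.71 and 0.48. With unscaled library totals they were -0.76 and 0.54, and the gap between particle and control embryos amounted to less than 1 CPM of means of 4.53 ± 0.330 CPM and 5.33 ± 0.139 CPM.

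At 1 dpi the order of oxt was another: 5.10, 3.91 and 3.49 CPM in particle embryos, 3.87 and 3.01 CPM in mock embryos, and 7.05, 4.03 and 3.98 CPM in control embryos. Both mock libraries lay below all controls (log2 difference -0.54 ± 0.31, or -0.22 without control replicate A), and the change of mock against control between 1 and 3 dpi was 1.46 ± 0.43. For avp, on chromosome 8 (ENSDARG00000058567), the precursor of vasotocin, the fish counterpart of vasopressin, libraries held 9 to 30 counts. At 3 dpi avp averaged 1.102 ± 0.459 CPM in particle embryos, 1.58 ± 0.388 CPM in mock embryos and 1.22 ± 0.0858 CPM in control embryos. At 1 dpi the means were 1.23 ± 0.453 CPM in particle embryos, 0.800 ± 0.252 CPM in mock embryos and 1.06 ± 0.163 CPM in control embryos. The 6 differences of avp between treatments ranged from -0.51 to 0.63 log2 units, with SEs of 0.38 to 0.45. Mock against control at 3 dpi was 0.37 ± 0.44, and 0.10 without mock replicate A.

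The remaining members were low. For galn, on chromosome 25 (ENSDARG00000091377), the precursor of galanin, a peptide linked to sleep in zebrafish, means at 3 dpi were 2.37 ± 0.788 CPM in particle embryos, 2.65 ± 1.18 CPM in mock embryos and 2.16 ± 0.382 CPM in control embryos. At 1 dpi they were 3.67 ± 0.702 CPM in particle embryos, 3.09 ± 0.323 CPM in mock embryos and 3.14 ± 1.67 CPM in control embryos. It was the one tested member with a lower mean at 3 dpi than at 1 dpi in uninjected embryos (-0.58 ± 0.38 log2 units), though the libraries of the 2 ages overlapped and the difference was -0.04 without control replicate C at 1 dpi. The melanin-concentrating hormone precursor pmch, on chromosome 4 (ENSDARG00000073959), had 0 to 19 counts and did not pass the filter on low counts. In uninjected embryos pmch had 1, 1 and 9 counts at 3 dpi, against 7, 5 and 14 counts at 1 dpi, which is 0.0914, 0.112 and 0.432 CPM against 0.543, 0.517 and 0.714 CPM. Of all tested genes 23.5% did not overlap between these ages in controls. Particle embryos had 0, 4 and 8 counts of pmch at 3 dpi and 3, 10 and 19 counts at 1 dpi, and their ages overlapped in CPM. Mock embryos had 1 and 0 counts at 3 dpi and 8 and 5 counts at 1 dpi, without overlap in CPM. The orexin precursor hcrt, on chromosome 3 (ENSDARG00000070932), a peptide of wakefulness, had 0 to 6 counts, with 3 libraries at 0, and did not pass either. A count of 0 allows a level of up to 3 counts, which is 0.310 to 0.391 CPM in those 3 libraries. No order of groups could therefore be read for hcrt. Its counts were 2, 3 and 2 in particle embryos, 4 and 0 in mock embryos and 2, 0 and 2 in control embryos at 3 dpi, and 3, 1 and 6 in particle embryos, 5 and 3 in mock embryos and 5, 0 and 4 in control embryos at 1 dpi.

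**Figure D3:**
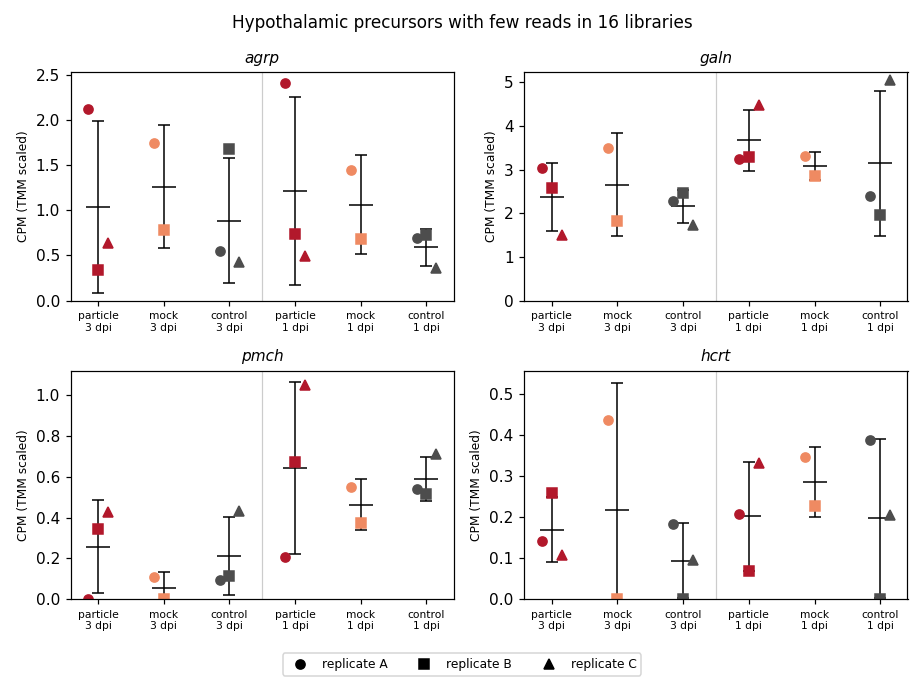
CPM (TMM scaled, linear axes from 0) of agrp, galn, pmch and hcrt in every library, by group and time, with replicates as symbols, means as dashes and 1 SD as bars. The groups overlap in most panels. In uninjected embryos pmch lies between 0.0914 and 0.432 CPM at 3 dpi, against 0.517 to 0.714 CPM at 1 dpi, where 23.5% of tested genes did not overlap. In particle embryos the ages overlap for pmch, at 0 to 0.428 CPM at 3 dpi and 0.207 to 1.05 CPM at 1 dpi.

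Calls of members are descriptive only, because the list was drawn up with results of these data known. Counted over the 8 members that passed the filter, oxt was called in particle against mock embryos at 3 dpi. That fit called 8.69% of 23623 genes (edgeR quasi-likelihood test, Benjamini-Hochberg adjusted p under 0.05). The call of oxt was lost without mock replicate A (-0.71), particle replicate A (-1.13) or particle replicate B (-1.1). VGF was called at 3 against 1 dpi in controls, where 1.36% of genes were called. No member was called in mock against control embryos at 3 dpi (1.63% of genes called) or at 1 dpi (0%), in particle against control embryos at 3 dpi (0%) or at 1 dpi (0.00423%), or in particle against mock embryos at 1 dpi (0%). DESeq2 called VGF at 1 dpi in both particle against control and mock against control embryos, and limma-voom in neither. What share of all genes these tools called was not computed. The edgeR fits called 0 to 1 gene where the percentages above are 0 or 0.00423. In these fits 538 genes had an unadjusted p under 0.05 for particle against mock at 1 dpi. The number was 363 for particle against control at 3 dpi and 517 at 1 dpi, and 2669 for mock against control at 1 dpi.

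Non-overlap of libraries was common with so few of them. At 3 dpi, 2 members had all particle libraries below both mock libraries and none had them above, where 43% of all tested genes did not overlap in either direction. Against controls, 1 member was below in particle embryos (5.74% of genes did not overlap) and 5 were above in mock embryos (39%). At 1 dpi, 2 members were lower in particle than in mock embryos (26.2%), 1 was higher in particle than in control embryos (5.52%), and in mock against control embryos 2 were higher and 1 was lower (36.2%). In controls 3 of the 8 tested members were higher at 3 dpi than at 1 dpi (23.5%). All 8 tested members had a positive log2 difference in mock against control embryos at 3 dpi, between 0.25 and 0.92 with a median of 0.35, where the median of all genes was -0.01. This rested on mock replicate A: without it agrp and galn turned to -0.08 and -0.22, and the other 6 lay between 0.04 and 0.48. In particle against mock embryos all 8 were below 0 with that library; with it left out agrp, galn and scg2b were at 0.40, 0.36 and 0.01, and VGF, scg3 and avp at -0.14, -0.02 and -0.23. With unscaled library totals scg2b and scg3 turned to -0.02 and -0.10 in mock against control embryos. In particle against mock embryos VGF, scg2b and scg3 reached up to 0.26, 0.22 and 0.13 over 15 other settings. Ribosomal protein genes moved alongside: their sum was 41460 to 48500 CPM in particle embryos, 56580 to 107900 CPM in mock embryos and 40960 to 53050 CPM in control embryos at 3 dpi, and their part in the members' values was not tested.

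**Figure D4:**
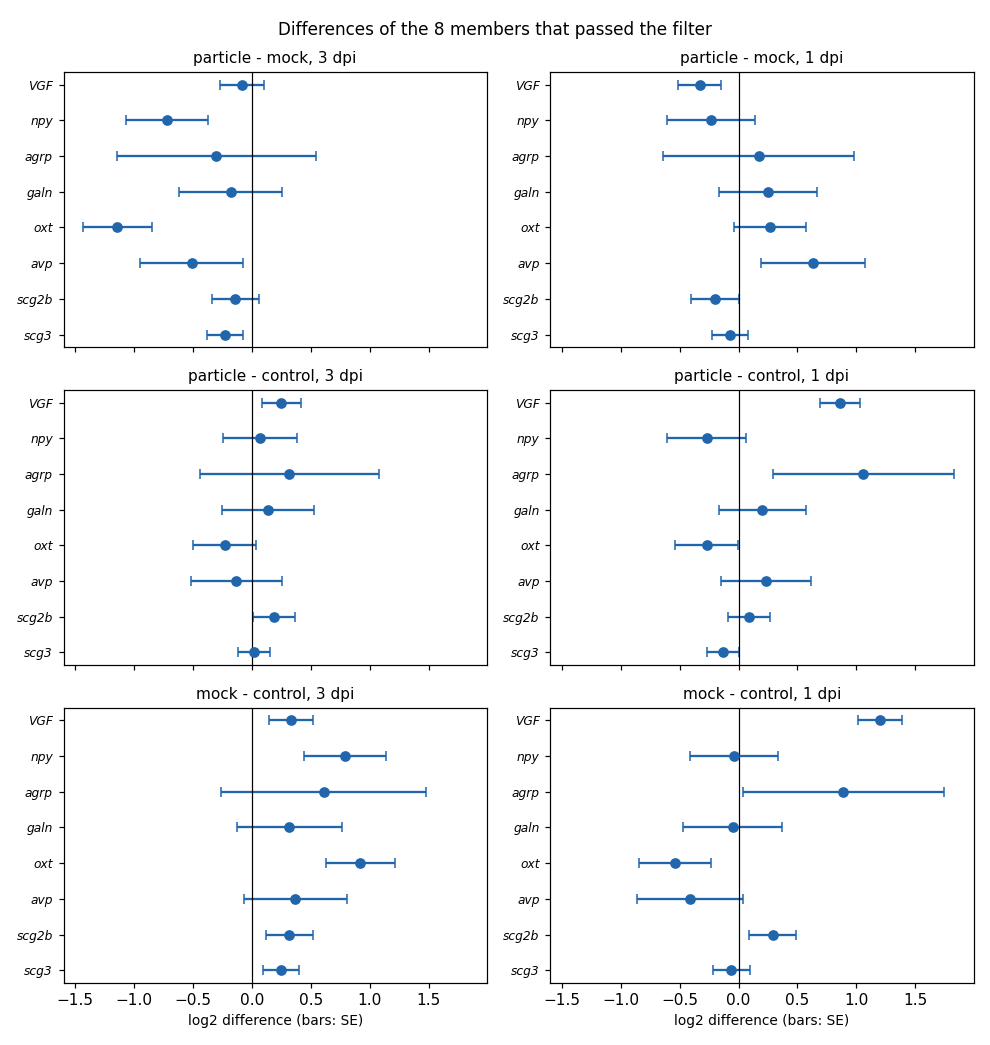
Log2 differences of the 8 tested members with SE bars, for particle against mock, particle against control and mock against control embryos (rows) at 3 and 1 dpi (columns). VGF stands at 0.86 in particle embryos and 1.2 in mock embryos against controls at 1 dpi. At 3 dpi all 8 members are on the positive side for mock against control embryos, where agrp and galn turn to -0.08 and -0.22 without mock replicate A, and scg2b and scg3 to -0.02 and -0.10 with unscaled library totals.

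Some members also resembled each other across the 16 libraries, which share treatment, age and scaling, so that the following correlations are descriptive. The closest pairs were npy with scg2b (Pearson r = 0.92 of log2 CPM), VGF with scg2b (0.842) and npy with scg3 (0.783). At the other end galn ran against npy (-0.563) and scg2b (-0.499), and agrp against avp (-0.393). VGF with avp was at 0.017. The genes outside the list that most resembled the members' mean were dirc2 (r = 0.955, Spearman rho = 0.885), usp25 (0.951 and 0.935), MMADHC (2 of 2) (0.949 and 0.90), si:ch211-245h14.1 (0.949 and 0.976) and cops8 (0.948 and 0.918). Most like VGF were si:dkey-31k12.2 (0.946 and 0.90), ovca2 (0.94 and 0.971) and prkg1b (0.93 and 0.871). Most like agrp, at lower values, were pecam1 (0.832 and 0.788), cgref1 (0.814 and 0.782) and CABZ01059119.1 (0.795 and 0.715).

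Around the 10 precursors, 139 tested genes of 5 pathway lists were compared: other neuropeptide precursors, granins and vesicle proteins, processing enzymes, receptors and hypothalamic transcription factors. These lists and the marker lists were also chosen with earlier results of these data known. Their counts, medians and p-values are therefore descriptive. Particle embryos at 3 dpi had 18 of the 139 called against mock embryos, 14 lower and 4 higher (8.69% of all genes called). The count was 0 without mock replicate A or particle replicate B, 1 without particle replicate A, 28 without mock replicate B and 20 without particle replicate C. Against controls 2 of the 139 were called in mock embryos (1.63% of all genes) and 0 in particle embryos (0%) at 3 dpi. In every comparison between treatments at 1 dpi 0 were called, where at most 0.00423% of all genes were. DESeq2 and limma-voom also called 0 of the 139 in particle against control embryos at 3 dpi and in the 3 comparisons between treatments at 1 dpi, and the edgeR test gave an unadjusted p under 0.05 for 2 genes of particle against control embryos at 3 dpi. At 1 dpi it did so for 8 genes of particle against mock embryos, 4 of particle against control embryos and 19 of mock against control embryos.

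Of 54 other precursors tested, 9 fell and none rose in particle against mock embryos at 3 dpi, where 8.69% of all genes were called. The median log2 difference was -0.57, against 0.03 for all genes, and 12 of the 54 were above 0. The gut and brain peptide gene pyya fell, at 10.3 ± 2.29 CPM in particle embryos and 22.4 ± 5.22 CPM in mock embryos (log2 difference -1.13 ± 0.20, edgeR adjusted p = 0.0126). Others that fell were cart4, of the appetite-suppressing CART family (-1.44 ± 0.30, edgeR adjusted p = 0.0177), trh, for thyrotropin-releasing hormone (-1.09 ± 0.23, 0.0180), and adcyap1b, for the peptide PACAP (-0.55 ± 0.13, 0.0267). Control embryos, at 12.5 ± 0.954 CPM of pyya and 9.001 ± 0.921 CPM of trh, stood nearer to the particle embryos, with 8.40 ± 1.77 CPM of trh, than to the mock embryos, with 17.9 ± 5.04 CPM. In mock against control embryos trh (0.99 ± 0.23, edgeR adjusted p = 0.0478) and pyya (0.84 ± 0.20, 0.0483) were the 2 called, both higher (1.63% of all genes called). The list median there was 0.54, against -0.01 for all genes. Without mock replicate A or any 1 control library none of the 139 was called there, and without mock replicate B 19 were. Without mock replicate A the adjusted p of pyya was 0.170 for particle against mock and 0.496 for mock against control.

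Of 14 genes for enzymes that process precursors, 3 rose in particle against mock embryos at 3 dpi and none fell (8.69% of all genes called). The list median was 0.15. The convertase gene pcsk1 measured 22.0 ± 7.05 CPM in particle embryos, 4.89 ± 3.22 CPM in mock embryos and 13.8 ± 2.99 CPM in control embryos, a log2 difference of 2.18 ± 0.56 for particle against mock (edgeR adjusted p = 0.0332). Its relative pcsk2 measured 22.9 ± 2.81 CPM in particle embryos, 11.01 ± 2.48 CPM in mock embryos and 19.3 ± 2.2 CPM in control embryos (1.06 ± 0.26, edgeR adjusted p = 0.0294). The carboxypeptidase gene cpda also rose (0.71 ± 0.17, edgeR adjusted p = 0.0298), while cpe, for carboxypeptidase E, gave 0.21 ± 0.17 (0.465). With mock replicate A left out pcsk1 was at 1.61, pcsk2 at 0.84 and cpda at 0.48, and none was called. Against controls no enzyme was called in mock embryos at 3 dpi, pcsk2 standing at -0.81 ± 0.26 (edgeR adjusted p = 0.104).

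Among 21 granin and vesicle genes, 3 entries fell and 1 rose in particle against mock embryos at 3 dpi (8.69% of all genes called). Those that fell were syt4 (-0.58 ± 0.16, edgeR adjusted p = 0.0376), for a vesicle synaptotagmin, and scg5, for the convertase chaperone 7B2, on 2 rows of the tables with nearly equal counts (-0.84 ± 0.19 and -0.79 ± 0.17). Control embryos stood near the particle embryos: syt4 averaged 53.9 CPM in particle, 80.7 CPM in mock and 53.7 CPM in control embryos. For scg5 the means were 26.3, 47.0 and 28.3 CPM on row 1 and 25.6, 44.3 and 27.6 CPM on row 2. Over 15 other settings these rows lay between -1.10 and -0.46 and between -1.01 and -0.41. Because the rows carry the same symbol and may share reads, scg5 is uncertain. The vesicle priming factor gene cadpsa rose (1.04 ± 0.28, edgeR adjusted p = 0.0363), whereas chga (-0.41 ± 0.17, 0.140) and the scg2b paralog scg2a (0.58 ± 0.38, 0.341) were not called. For cadpsa the means were 37.2 CPM in particle embryos, 18.1 CPM in mock embryos and 33.4 CPM in control embryos. Of 21 receptor genes 1 was called, mrap2a, whose protein modulates melanocortin receptors (-0.77 ± 0.21, edgeR adjusted p = 0.0404), and mc4r, the receptor that agrp blocks, gave -0.17 ± 0.54 (0.869) and 1.85 without mock replicate A. Without that library cadpsa was at 0.59 and syt4 at -0.26, neither called. Of 29 transcription factor genes 1 fell, rx3, needed for hypothalamus and eye (-1.03 ± 0.29, edgeR adjusted p = 0.0440). This fit called 8.69% of all genes, a larger share than in the receptor and transcription factor lists. Over 15 other settings mrap2a lay between -0.90 and -0.40 and rx3 between -1.32 and -0.67. In mock against control embryos mrap2a was at 0.79 ± 0.21 and rx3 at 0.74 ± 0.29, neither called.

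Neuron markers were mixed in the same comparison, with 2 of 27 higher and 3 lower (8.69% of all genes called). The vesicular glutamate transporter genes rose in particle against mock embryos: slc17a6a measured 27.7 ± 6.77 CPM in particle embryos, 7.32 ± 3.27 CPM in mock embryos and 21.0 ± 5.26 CPM in control embryos (particle against mock 1.92 ± 0.35, edgeR adjusted p = 0.0132). The other was slc17a6b (1.62 ± 0.32, edgeR adjusted p = 0.0151), and stmn2a (-0.66 ± 0.17, 0.0334) and syn2b (-0.60 ± 0.17, 0.0481) were among the 3 that fell. Without mock replicate A these 4 were at 1.51, 1.11, -0.57 and -0.52 (edgeR adjusted p = 0.198, 0.198, 0.292 and 0.366), and none of the 4 was called without particle replicate B either. Without particle replicate A stmn2a and syn2b were not called, nor was syn2b without mock replicate B. In mock against control embryos slc17a6a was the 1 marker called (-1.53 ± 0.35, edgeR adjusted p = 0.0442), where 1.63% of all genes were called. Without mock replicate A it was at -1.12. Of 14 glial genes none was called in particle against mock embryos at 3 dpi, and their sum was 1995 to 2560 CPM in particle embryos, 3243 to 3684 CPM in mock embryos and 2658 to 2800 CPM in control embryos. What these shifts contribute to the precursors' values was not tested.

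**Figure D5:**
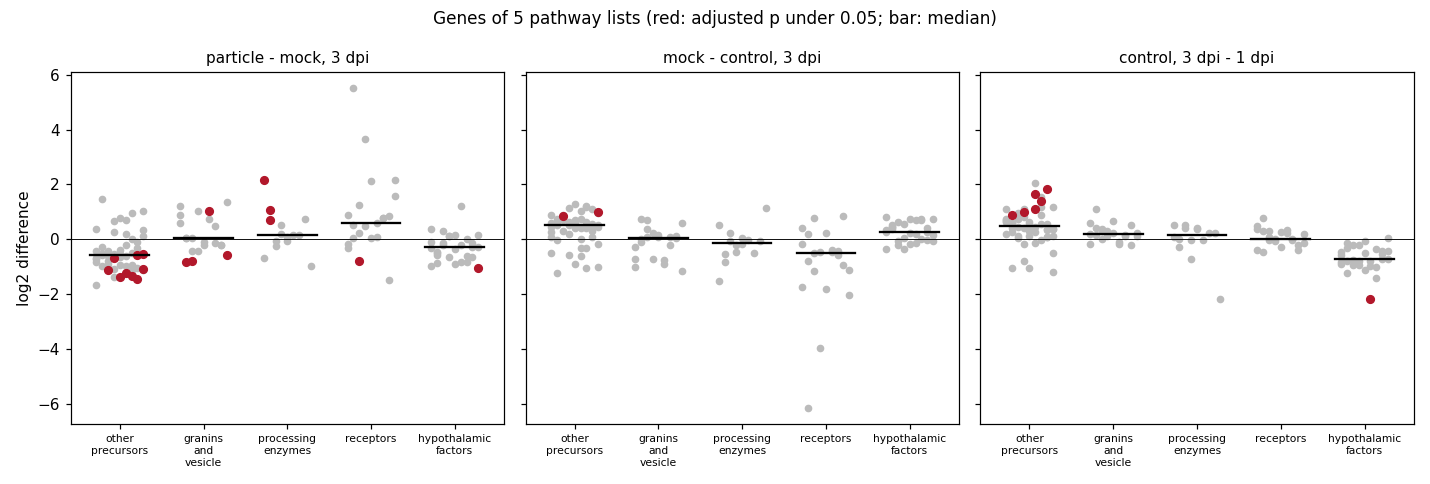
Log2 differences of the genes of 5 pathway lists in particle against mock embryos at 3 dpi, mock against control embryos at 3 dpi, and control embryos at 3 against 1 dpi. Each point is a gene, red where the adjusted p was under 0.05, and bars are list medians. Other precursors have a median of -0.57 in the first panel and 0.54 in the second.

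Among the 54 other precursors 6 rose with age in uninjected embryos and none fell, where 1.36% of all genes were called. The median log2 difference at 3 against 1 dpi was 0.51, and 0 for all genes. The somatostatin genes sst3, at 20.8 ± 0.722 CPM at 3 dpi and 10.5 ± 1.12 CPM at 1 dpi (0.98 ± 0.17, edgeR adjusted p = 0.0156), and sst1.1 (0.88 ± 0.18, 0.0318) rose. So did gnrh2, for a gonadotropin-releasing hormone (1.83 ± 0.34, edgeR adjusted p = 0.0230), rln3a, for relaxin 3 (1.66 ± 0.34, 0.0305), and cart2 (1.40 ± 0.31, 0.0423). The pituitary and hypothalamic precursor pomca, at 55.4 ± 6.15 CPM at 3 dpi and 40.5 ± 3.29 CPM at 1 dpi, was not called (0.45 ± 0.13, edgeR adjusted p = 0.0890). No granin, enzyme or receptor gene was called, and of 29 transcription factor genes 28 had a lower mean, with a median of -0.73 and 1 call, nkx2.4b (-2.19 ± 0.48, edgeR adjusted p = 0.0404). Without any 1 of the 6 control libraries the count of pathway genes called with age was 0 to 3, against 7 with all of them.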

How the data were processed

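The 16 libraries hold RNA of whole zebrafish embryos. The deposited tables give whole-number read counts per gene. They were entered as estimated counts because the last line is a decimal size factor of the authors, and rounding changed no gene. That line and a blank one, 2 per file, were left out. Per the submitters' processing notes Bowtie2, SAMtools and DESeq were used with GRCz10. Counting tool, annotation and strand setting were not given in the sources used here, so that overlapping and duplicated genes may share reads. Titles were followed where the header of particle replicate B at 1 dpi names replicate A and a label of control replicate C at 1 dpi reads replica 1.

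The test was edgeR 4.0.16 under R 4.3.3, and DESeq2 1.42.0 and limma 3.58.1 served as alternatives. Figures used matplotlib 3.10.9. The filterByExpr filter (minimum count 10, minimum total 15) left 23623 genes. TMM scaling, a robust quasi-likelihood fit of 6 group means over all libraries, and Benjamini-Hochberg adjustment over all genes at 0.05 were used. Correlations used log2 CPM with a prior count of 2. The steps were tested on simulated counts. Libraries of 1 group differed by more than sampling noise (chi-square per degree of freedom 6.34 to 105), and none repeated another. The labels call them biological replicates, each from pooled embryos, and 2 or 3 per group limit the precision.

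The members and gene lists were chosen with earlier results of these data known. Genes named are the members and 9 related genes, the called genes of each list and comparison with the smallest p (up to 4), and those most like the members. Where a list had no call its gene with the smallest p was recorded but is not discussed. Other settings were each library left out, other scaling, filter and tools, fewer libraries in the fit, replicates A and B only, and a replicate block. Pairing was read from the correlation of deviations from group means (over 0.1 in every pair), for groups with 3 pairs. Within a time every same-letter pair met this only for particle and control libraries at 1 dpi. Across times particle libraries at 3 dpi met it with particle (0.112 to 0.542) and control libraries (0.214 to 0.498) at 1 dpi. Control libraries at 3 dpi met it with neither of these groups at 1 dpi. The rule did not tell replicates A and B apart: at 1 dpi control A with particle B was at 0.31, against 0.305 for the B pair. No label says what a letter shares. Sequences and coordinates are not given here.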

Additional observations from a re-analysis of the deposited data

Results flagged for a closer look

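For oxt the difference between mock and control embryos had opposite signs at the 2 times. All mock libraries lay above all controls at 3 dpi, at 12.6 and 7.42 CPM against 5.24 to 5.49 CPM, and below all controls at 1 dpi, at 3.87 and 3.01 CPM against 3.98 to 7.05 CPM. Of all tested genes 39% did not overlap between mock and control embryos at 3 dpi and 36.2% at 1 dpi. The share with opposite directions at the 2 times was not computed. At 1 dpi the log2 difference of oxt was -0.22 without control replicate A. The change between 1 and 3 dpi was 1.46 log2 units. Since oxt is a member chosen with results known, the value is a description, and without mock replicate A at 3 dpi it was 1.02.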

How the results depend on the processing

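Of the member differences recomputed under other settings 1236 moved by less than the replicate SD and 89 by more, and no called value changed sign. DESeq2 called 1 member for particle against control and 1 for mock against control at 1 dpi, 2 with age, 2 for the change of mock against control between times and 1 for that of particle against mock; of the pathway genes it called 12 for mock against control at 3 dpi, 18 with age, and 15 and 21 for those 2 changes. For mock against control at 3 dpi limma-voom and no filter each called 0 pathway genes, and no filter called 11 for particle against mock. With libraries of the same time only, 0 members and 0 pathway genes were called for particle against mock at 3 dpi and 0 pathway genes for mock against control. With only the groups compared these were 0, 0 and 0, and 0 pathway genes with age. Replicates A and B only gave 44 pathway genes for particle against mock and 6 for mock against control at 3 dpi, and 5 and 26 for the changes of mock against control and particle against mock. Unscaled totals, an alternative added after seeing the data as was a fit that was not robust, gave 0 members for particle against mock at 3 dpi, 1 for the change of mock against control, and 2 pathway genes with age and 1 for the change of particle against mock. Leaving out each library gave 0 to 1 members for particle against mock at 3 dpi, mock against control at 3 dpi and both changes, and 0 to 28, 0 to 19, 0 to 3 (age), 0 to 14 (change of mock against control) and 0 to 22 (change of particle against mock) pathway genes. Where a group is left with 1 library, it is assumed to vary like the others. The cause of these shifts was not tested, and the share of all genes called was not computed for these settings.

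How far libraries of the same replicate letter correlated differed between comparisons. For particle against control at 1 dpi all 3 same-letter pairs correlated above 0.1 (0.571, 0.305 and 0.745), and there the replicate block changed no count of calls and gave 0.85 for VGF. Over all comparisons within a time 7 of 14 same-letter pairs did (-0.095 to 0.745), against 6 of 28 other pairs. Deviations from a group mean cancel within the group, so that the pairs are not independent and these counts are descriptive. Pairs of C libraries were at 0.745 and 0.569 within a time and at 0.321 to 0.542 across times. At 1 dpi control A with particle B was at 0.31 and control B with particle A at 0.224, so that replicates A and B were not told apart. With the replicate block 3 members were called with age, 2 for the change of mock against control and 1 for that of particle against mock, and 42, 23 and 18 pathway genes for particle against mock at 3 dpi, mock against control at 3 dpi and age, and 21 and 25 for the changes of mock against control and particle against mock. For the replicate block, too, the share of all genes called was not computed, so that these counts have no background. Depth limits pmch, hcrt, agrp and avp, with at most 35 counts in any library.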
